A study of Homo sapiens with 9 samples.

Results

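The immediate early, AP-1 and ERK feedback genes described here are 38 human genes. They comprise 8 genes of AP-1 subunits (JUN, JUNB, JUND, FOS, FOSB, FOSL1, FOSL2 and ATF3), 12 genes of the DUSP, SPRY and SPRED families, and 18 other genes. The 12 are called ERK feedback genes here, and the 18 are called other immediate early genes. These are names of groups and may not hold for each gene, and no role was tested. The 38 genes were chosen by name, with earlier results of these data known. Of the 38, 37 stood among the 16750 genes of the deposited expression table, and no level of DUSP10 was analysed here. A gene was tested where it reached 1 CPM (reads of a gene scaled to a common library size) in at least 3 of the 9 libraries, which held for 36 of the 37 and for 14554 genes in all. EGR3, an early growth response zinc finger gene, did not reach that filter. It stood at 0.724, 0.716 and 0.540 CPM in SLC22A10_OE and 0.445, 0.234 and 0.207 CPM in SLC22A15_OE, against 0.308, 0.281 and 0.186 CPM in vector. NR4A1 passed mainly through SLC22A10_OE, since only vector library 1 also reached 1 CPM. The counts below include its calls, which are a description only.

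PANC-1, an established line from a human pancreatic duct carcinoma, was transduced with a lentivirus and selected with puromycin to give stable clones. The SLC22A10_OE clones carried SLC22A10, the SLC22A15_OE clones carried SLC22A15, and the vector clones carried the empty plasmid. Both carriers are solute carriers of the organic ion transporter family, and the design asks which transcripts differ from vector in each line. RNA depleted of ribosomal RNA was sequenced in 3 libraries per group, from cells kept in serum and puromycin. How many clones each group holds is not stated. The titles of the 3 libraries of each group end in A1, A2 and B1, and what the letters mark is not given. Nothing says that the libraries came from separate cultures, so p-values measure only the spread between libraries, which may be technical. An effect of the carrier and an effect of the clone cannot be told apart. Since RNA came from dishes of cells, fewer cells with a gene on and less RNA per cell cannot be told apart either.

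When a growth factor activates its receptor, RAS, RAF, MEK and ERK are activated in turn, and ERK then phosphorylates ELK factors that sit with SRF at immediate early genes. These genes are transcribed within minutes and without new protein synthesis, and several of them encode subunits of AP-1, a dimer of a JUN protein with a FOS or ATF protein. The same pathway induces its own inhibitors. DUSP proteins dephosphorylate MAP kinases, while SPRY and SPRED proteins act upstream at the receptor and at RAS.

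Promoter windows of 4 genes whose transcripts are described below show the kinds of site through which this group of genes is known to be regulated. The windows run from 250 bases before to 50 bases after the RefSeq start site (GRCh38.p14) and are written 5′ to 3′ on the strand of the gene, with motif matches in capitals. JUN (chr1:58783998-58784297, minus strand) holds TGACATCA, the AP-1 type site known from this promoter, starting 67 bases before the start site. JUND (chr19:18281573-18281872, minus strand) holds the cAMP response element TGACGTCA starting 200 bases before it. FOSL2 (chr2:28392608-28392907, plus strand) holds the AP-1 site TGACTCA at base 5 of the transcript. EGR1 (chr5:138465229-138465528, plus strand) holds 2 CArG boxes, the site bound by SRF, starting 105 and 83 bases before the start site.
JUN: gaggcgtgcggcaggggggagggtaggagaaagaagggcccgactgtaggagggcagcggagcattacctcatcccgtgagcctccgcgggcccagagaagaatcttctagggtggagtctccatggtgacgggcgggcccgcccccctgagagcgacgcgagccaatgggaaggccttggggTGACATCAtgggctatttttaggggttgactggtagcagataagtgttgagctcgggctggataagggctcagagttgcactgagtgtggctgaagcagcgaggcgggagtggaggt
JUND: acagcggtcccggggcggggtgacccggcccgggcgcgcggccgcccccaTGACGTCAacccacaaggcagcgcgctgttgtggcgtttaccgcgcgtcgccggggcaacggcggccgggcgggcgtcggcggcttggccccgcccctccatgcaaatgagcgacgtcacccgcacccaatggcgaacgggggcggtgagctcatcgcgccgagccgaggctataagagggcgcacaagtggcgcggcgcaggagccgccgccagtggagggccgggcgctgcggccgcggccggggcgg
FOSL2: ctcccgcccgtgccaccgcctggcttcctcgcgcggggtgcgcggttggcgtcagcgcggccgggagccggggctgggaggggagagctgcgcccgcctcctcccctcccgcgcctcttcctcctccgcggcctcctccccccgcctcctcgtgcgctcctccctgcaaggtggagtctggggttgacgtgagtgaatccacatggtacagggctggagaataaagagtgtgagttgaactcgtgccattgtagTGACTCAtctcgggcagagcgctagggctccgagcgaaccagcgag
EGR1: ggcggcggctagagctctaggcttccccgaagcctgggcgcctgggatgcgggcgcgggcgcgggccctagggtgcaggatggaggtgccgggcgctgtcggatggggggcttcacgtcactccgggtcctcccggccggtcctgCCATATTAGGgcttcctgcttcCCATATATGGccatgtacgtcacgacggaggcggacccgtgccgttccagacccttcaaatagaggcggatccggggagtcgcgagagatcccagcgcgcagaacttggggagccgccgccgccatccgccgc

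A window was found for 29 of the 38 genes, 43 windows in all. Motifs were searched on both strands. TGACTCA stood in 5 of these 43 windows (11.6%), in FOSL2, SPHK1, SPRED2 and SPRED3, and in 4.95% of all 35116 windows. TGACGTCA stood in 4 of them (9.3%; DUSP1, JUND, MAFF and ZFP36L1) and in 1.85% of all windows. TGACATCA also stood in 4 (ATF3, DUSP10, JUN and KLF6) and in 2.61% of all windows. A CArG box stood in 2 (4.65%; EGR1 and SRF) and in 1.29% of all windows. None of these motifs contains another. A match describes the letters only, and no test was made of these shares.

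The libraries held 28.4 to 42.9 M reads, so that a gene at 1 CPM rested on 27.8 to 43.4 reads. SLC22A10 averaged 85.5 ± 5.53 CPM (SD, n = 3) in SLC22A10_OE, against 1 read over the 3 vector libraries, and SLC22A15 averaged 75.9 ± 2.48 CPM in SLC22A15_OE, against 6.11 ± 0.571 CPM in vector. Of 8 duct carcinoma markers, 5 were in the table, and their summed level was 533 to 593 CPM in SLC22A10_OE and 287 to 321 CPM in SLC22A15_OE, against 436 to 475 CPM in vector. KRT19 averaged 216 CPM in SLC22A10_OE and 70.2 CPM in SLC22A15_OE, against 73.2 CPM in vector, while KRT7 was under 0.5 CPM in each group. KRT18 averaged 99.2 CPM in SLC22A10_OE and 95.4 CPM in SLC22A15_OE, against 161.6 CPM in vector. KRT8 averaged 88.85 CPM in SLC22A10_OE and 47.55 CPM in SLC22A15_OE, against 91.4 CPM in vector. SOX9 averaged 156 CPM in SLC22A10_OE and 85.7 CPM in SLC22A15_OE, against 126.5 CPM in vector. These markers thus did not move as a group. Of 4 mesenchymal markers, VIM, FN1 and ZEB1 were in the table, with a summed level of 3367 to 3555 CPM in SLC22A10_OE and 2588 to 2764 CPM in SLC22A15_OE, against 3046 to 3243 CPM in vector. Nearly all of this sum was VIM, at 3390 CPM in SLC22A10_OE and 2621 CPM in SLC22A15_OE, against 3091 CPM in vector. ZEB1 averaged 48.8 CPM in SLC22A10_OE and 47.6 CPM in SLC22A15_OE, against 59.4 CPM in vector. FN1 averaged 3.42 CPM in SLC22A10_OE and 4.735 CPM in SLC22A15_OE, against 4.74 CPM in vector. The acinar (6 genes) and hepatocyte (3 genes) markers were not in the table. Of the islet, endothelial and leukocyte markers CHGA, CDH5 and CD68 were, and their summed levels were 0.0720 to 0.172, 6.24 to 7.65 and 23.3 to 24.6 CPM in SLC22A10_OE and 0.468 to 0.599, 2.52 to 2.86 and 20.2 to 20.4 CPM in SLC22A15_OE, against 0.478 to 1.06, 0.901 to 1.45 and 15.5 to 19.0 CPM in vector. The part of these markers in the results was not tested. In 1 library of each group (SLC22A10_OE library 3, SLC22A15_OE library 1 and vector library 1) mitochondrial ribosomal RNA took 0.0151%, 0.0111% and 0.00958% of reads, against 0.0454% to 0.0843% in the other 6. That library had the highest level of its group in all 3 groups for 15 of the 36 tested genes (41.7%), JUN, JUNB, JUND, FOSB, FOSL2, EGR1, IER2, DUSP1, SPRY4, MAFF, MAFK, SRF, ZFP36, ZFP36L1 and SPHK1, and for 22.2% of all genes tested. It had the lowest level in all 3 groups for 0 of 36, and for 20.7% of all genes tested. The values without these 3 libraries are given for the genes named in the next paragraph. The kit was strand-specific, but whether counting used the strand is not given, so reads of 10 of the 38 genes cannot be told apart from those of an overlapping gene on the other strand. These are CSRNP1, DUSP6, EGR3, IER2, IER3, JUNB, MAFK, NR4A1, PHLDA1 and SPHK1.

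SLC22A10_OE held large changes of these genes in both directions. JUN, FOSL1 and DUSP7 were lower than in vector, and JUND, EGR1, SPRY1 and SPRED3 were higher. In SLC22A15_OE most of the genes that changed were lower, among them JUN, FOSL1, DUSP6 and TRIB1, and JUND was higher. Changes are log2 fold changes on log2(CPM + 1), which understate the change of low genes, and were tested with limma. A call is an adjusted p under 0.05, after Benjamini-Hochberg adjustment over all genes tested. Of the 36 genes, 13 were higher, 12 lower and 11 without a call in SLC22A10_OE against vector, where 34.7% of all genes tested were higher and 32.5% lower. In SLC22A15_OE against vector, 1 was higher, 18 lower and 17 without a call, where 10.8% of all genes tested were higher and 9.58% lower. Between the lines, 9 were higher in SLC22A15_OE than in SLC22A10_OE, 22 lower and 5 without a call, where 30.8% of all genes tested were higher and 32.1% lower. The median log2 fold change of the 36 was 0.06 in SLC22A10_OE, -0.23 in SLC22A15_OE and -0.38 between the lines, against 0.00, 0.01 and 0.00 over all genes tested. Without regard to sign it was 0.48, 0.25 and 0.51, against 0.32, 0.12 and 0.29 over all genes tested. The lines share the vector libraries, so their values against vector stand side by side and differences between them rest on the direct comparison. With every library centred on its own median, all genes had a median of -0.12 in SLC22A10_OE against vector and the 36 genes one of -0.06. The deviations of same-numbered SLC22A15_OE and vector libraries correlated at 0.194 to 0.566, and a fit of these 6 libraries with the number as a block called 3 of the genes higher and 24 lower, where 20.9% of all genes tested in it were higher and 20.7% lower. Without vector library 1, 3 genes were called higher in SLC22A15_OE.

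**Figure D1:**
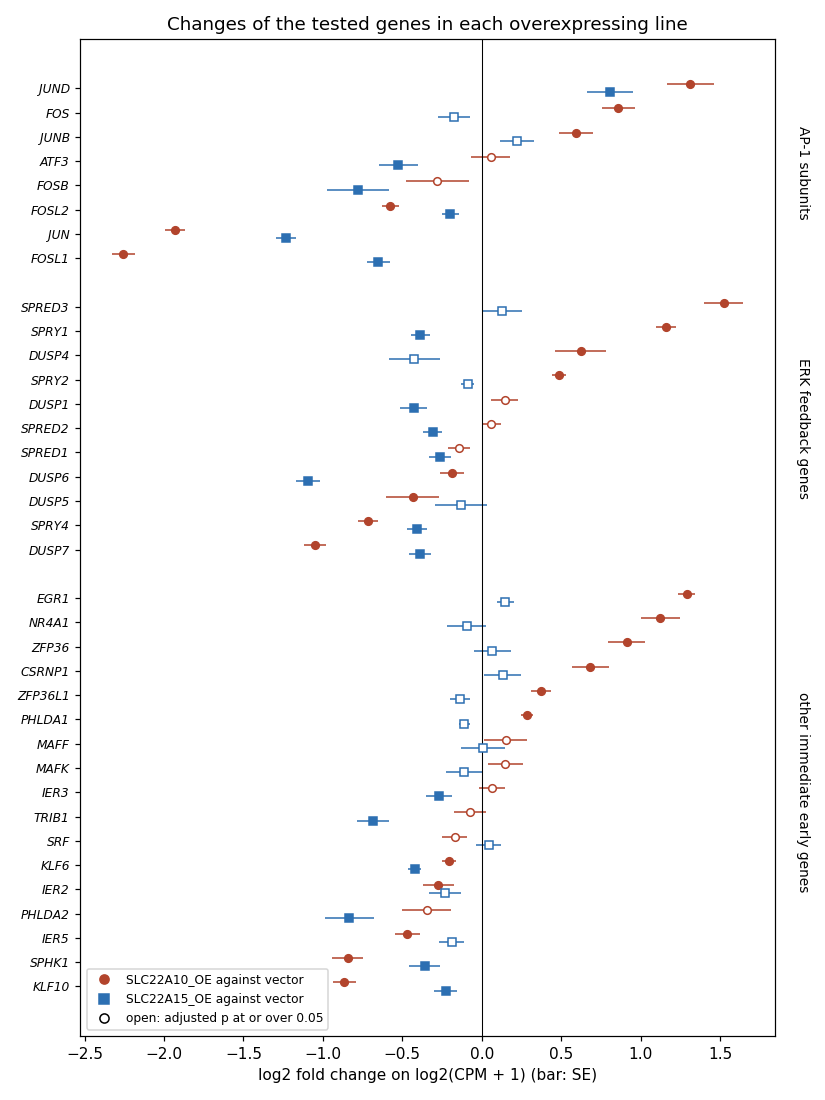
Log2 fold change against vector on log2(CPM + 1), with SE, of the 36 tested genes in SLC22A10_OE (red circles) and SLC22A15_OE (blue squares), grouped by role and ordered by the SLC22A10_OE value; open symbols did not pass the test. FOSL1 (-2.26 in SLC22A10_OE) and JUN lie farthest to the left in SLC22A10_OE, and JUND (1.31 and 0.81) has the only filled blue symbol to the right of 0.

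JUN, the founding subunit of AP-1, was lower in both lines. It stood at 58.4, 58.8 and 63.5 CPM in SLC22A10_OE and 103, 103 and 90.3 CPM in SLC22A15_OE, against 246, 226 and 227 CPM in vector. The 3 groups did not overlap, and SLC22A10_OE was the lowest. For JUN, the log2 fold change was -1.93 (SE 0.06, adjusted p = 4.82e-11) in SLC22A10_OE and -1.23 (SE 0.06, adjusted p = 2.27e-08) in SLC22A15_OE. Between the lines, JUN was higher in SLC22A15_OE than in SLC22A10_OE by 0.70 (SE 0.06, adjusted p = 7.75e-07). JUND, the JUN protein known to be abundant in resting cells, was higher in both lines. It stood at 98.3, 97.7 and 128 CPM in SLC22A10_OE and 90.4, 71.3 and 65.5 CPM in SLC22A15_OE, against 53.7, 37.7 and 37.8 CPM in vector. Every library of each overexpressing line lay above every vector library, and the lines did not overlap. For JUND, the log2 fold change was 1.31 (SE 0.15, adjusted p = 4.46e-06) in SLC22A10_OE and 0.81 (SE 0.15, adjusted p = 0.00145) in SLC22A15_OE. SLC22A15_OE differed from SLC22A10_OE by -0.51 (SE 0.15, adjusted p = 0.00848). JUNB, a JUN protein known to restrain JUN activity, stood at 42.1, 42.4 and 50.2 CPM in SLC22A10_OE and 38.5, 33.1 and 31.9 CPM in SLC22A15_OE, against 33.7, 25.2 and 29.6 CPM in vector. SLC22A10_OE lay above vector, and SLC22A15_OE overlapped with it. For JUNB, the log2 fold change was 0.59 (SE 0.11, adjusted p = 0.000255) in SLC22A10_OE and 0.22 (SE 0.11, adjusted p = 0.164) in SLC22A15_OE, and the line difference was -0.37 (SE 0.11, adjusted p = 0.00789). With the library number as a block, JUNB was called higher in SLC22A15_OE (0.22, adjusted p = 0.000857; 0.000857 to 0.508 over all settings). Without vector library 1 it was called at 0.32. Without the 3 libraries low in mitochondrial ribosomal RNA, the values in SLC22A10_OE and SLC22A15_OE were -1.93 and -1.22 for JUN, 1.35 and 0.84 for JUND and 0.61 and 0.24 for JUNB.

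FOSL1, the FOS protein that lasting ERK activity is known to build up, had the largest change of the 36 genes in SLC22A10_OE. It stood at 13.3, 13.8 and 15.3 CPM in SLC22A10_OE and 45.0, 46.6 and 43.5 CPM in SLC22A15_OE, against 75.2, 65.2 and 73.6 CPM in vector. The groups did not overlap, with SLC22A10_OE the lowest and SLC22A15_OE between it and vector. For FOSL1, the log2 fold change was -2.26 (SE 0.07, adjusted p = 4.9e-11) in SLC22A10_OE and -0.65 (SE 0.07, adjusted p = 2.8e-05) in SLC22A15_OE, and SLC22A15_OE was higher than SLC22A10_OE by 1.61 (SE 0.07, adjusted p = 3.22e-09). As a ratio of means, vector held 5.04 times the FOSL1 level of SLC22A10_OE. FOSL2, the related FOS protein, stood at 117, 122 and 128 CPM in SLC22A10_OE and 164, 158 and 155 CPM in SLC22A15_OE, against 194, 175 and 179 CPM in vector. These groups were in the same order and did not overlap. For FOSL2, the log2 fold change was -0.58 (SE 0.05, adjusted p = 7.33e-07) in SLC22A10_OE and -0.20 (SE 0.05, adjusted p = 0.0173) in SLC22A15_OE, with a line difference of 0.38 (SE 0.05, adjusted p = 4.11e-05). The FOSL2 call in SLC22A15_OE was lost without SLC22A15_OE library 2 (-0.19) or library 3 (-0.18). FOS, the subunit that serum induces within minutes, stood at 7.70, 7.33 and 7.74 CPM in SLC22A10_OE and 3.11, 2.86 and 3.62 CPM in SLC22A15_OE, against 3.42, 3.69 and 4.11 CPM in vector. SLC22A10_OE lay above the other 2 groups, which overlapped. For FOS, the log2 fold change was 0.86 (SE 0.10, adjusted p = 7.4e-06) in SLC22A10_OE and -0.18 (SE 0.10, adjusted p = 0.258) in SLC22A15_OE, and SLC22A15_OE differed from SLC22A10_OE by -1.04 (SE 0.10, adjusted p = 1.99e-06). FOSB, a FOS protein induced with it, stood at 2.69, 1.86 and 3.13 CPM in SLC22A10_OE and 2.00, 0.806 and 1.84 CPM in SLC22A15_OE, against 4.0, 3.29 and 2.62 CPM in vector. SLC22A15_OE lay below vector, while SLC22A10_OE overlapped with both. For FOSB, the log2 fold change was -0.28 (SE 0.20, adjusted p = 0.225) in SLC22A10_OE and -0.78 (SE 0.20, adjusted p = 0.0128) in SLC22A15_OE, and the line difference was -0.50 (SE 0.20, adjusted p = 0.0403). Both SLC22A15_OE calls of FOSB were lost without SLC22A15_OE library 2, at -0.55 against vector and -0.27 between the lines, and the line call was also lost without SLC22A10_OE library 1 (-0.47) or library 3 (-0.38), after centring (-0.41) and with edgeR (-0.72, adjusted p = 0.0503). Without the 3 libraries low in mitochondrial ribosomal RNA, the values in SLC22A10_OE and SLC22A15_OE were -2.27 and -0.61 for FOSL1 and 0.80 and -0.21 for FOS.

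ATF3, a stress-induced partner of JUN, stood at 1.86, 1.40 and 2.09 CPM in SLC22A10_OE and 0.699, 1.01 and 0.852 CPM in SLC22A15_OE, against 1.72, 1.52 and 1.75 CPM in vector. SLC22A15_OE lay below both other groups, which overlapped with each other. For ATF3, the log2 fold change was 0.06 (SE 0.12, adjusted p = 0.701) in SLC22A10_OE and -0.52 (SE 0.12, adjusted p = 0.00834) in SLC22A15_OE, and the line difference was -0.58 (SE 0.12, adjusted p = 0.00117). Of all genes tested, 34.7% were higher and 32.5% lower in SLC22A10_OE, 10.8% and 9.58% in SLC22A15_OE, and 30.8% and 32.1% between the lines. Over the 8 subunit genes, 3 were higher and 3 lower in SLC22A10_OE, and 1 was higher and 5 lower in SLC22A15_OE. Between the lines 3 were higher and 5 lower in SLC22A15_OE. Their median log2 fold changes were -0.11 in SLC22A10_OE, -0.36 in SLC22A15_OE and -0.44 between the lines. The median in SLC22A10_OE was 0.01 without SLC22A10_OE library 2 and -0.23 after centring, and 3 subunits were called lower in SLC22A15_OE without its library 2, where FOSB and FOSL2 were lost.

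**Figure D2:**
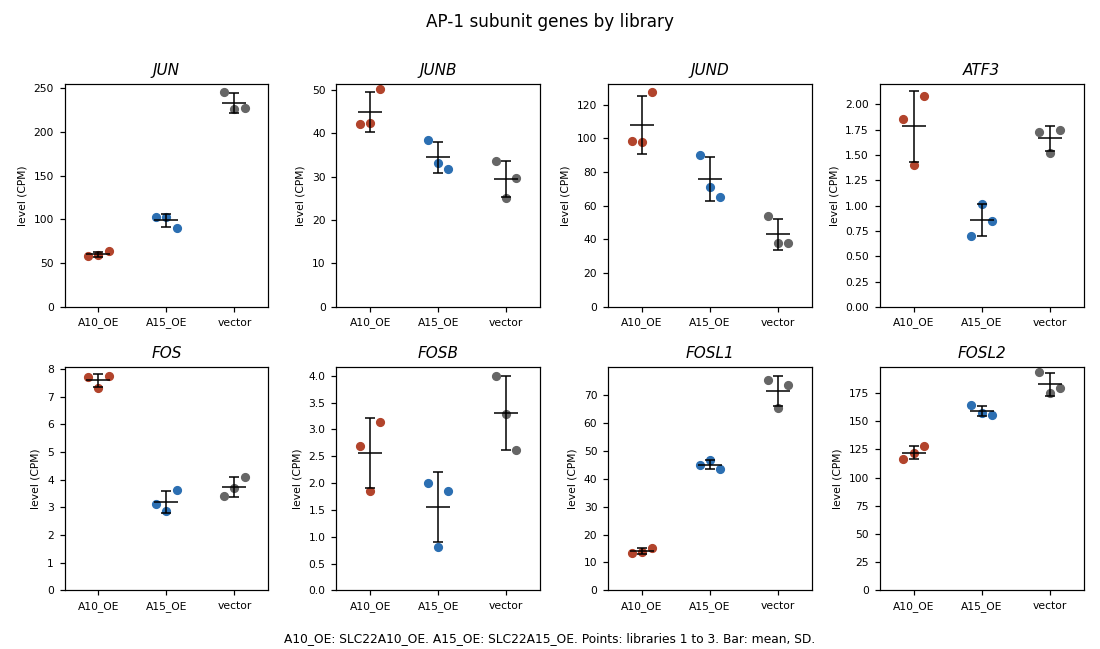
Level in CPM of the 8 AP-1 subunit genes in every library, by group (points), with mean and SD; each axis starts at 0. JUN and FOSL1 fall into 3 separate levels with SLC22A10_OE lowest, and JUND into 3 with SLC22A10_OE highest, at 97.7 to 128 CPM.

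Divided by transcript length, the levels of subunits of a family can be set against each other. Per kb of the longest coding transcript, JUN made up 17.2% ± 1.28 of the JUN family in SLC22A10_OE and 32.0% ± 2.32 in SLC22A15_OE, against 62.8% ± 2.97 in vector (SD, n = 3 each). JUND made up 58.0% ± 1.83 in SLC22A10_OE and 46.3% ± 2.45 in SLC22A15_OE, against 21.9% ± 2.48 in vector. JUNB made up 24.8% ± 0.559 in SLC22A10_OE and 21.7% ± 0.613 in SLC22A15_OE, against 15.4% ± 1.10 in vector. JUND was thus the most abundant JUN transcript per kb in each overexpressing line, and JUN in vector. The family sum was 99.6 ± 12.5 CPM per kb in SLC22A10_OE and 87.5 ± 10.5 in SLC22A15_OE, against 105.1 ± 10.1 in vector, and the ranges of 1 SD around these means overlapped.

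In the FOS family, FOSL2 had the largest share in SLC22A10_OE, with 59.0% ± 0.823. It had 45.1% ± 0.711 in SLC22A15_OE, against 37.5% ± 1.04 in vector. FOSL1 had 27.4% ± 0.618 in SLC22A10_OE and 51.3% ± 1.22 in SLC22A15_OE, against 58.9% ± 1.16 in vector, and was the most abundant FOS family transcript per kb in SLC22A15_OE and in vector. FOS had 11.4% ± 0.564 in SLC22A10_OE and 2.82% ± 0.392 in SLC22A15_OE, against 2.39% ± 0.287 in vector. FOSB had 2.19% ± 0.493 in SLC22A10_OE and 0.782% ± 0.329 in SLC22A15_OE, against 1.21% ± 0.229 in vector. The family sum was 30.9 ± 1.59 CPM per kb in SLC22A10_OE and 52.6 ± 1.02 in SLC22A15_OE, against 72.6 ± 4.54 in vector, with no overlap between the ranges of 1 SD. With the length of all exons joined, the order of FOS family shares in each group did not change. For JUN, JUNB and JUND both lengths are the same, so this choice could not change the JUN family shares.

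**Figure D3:**
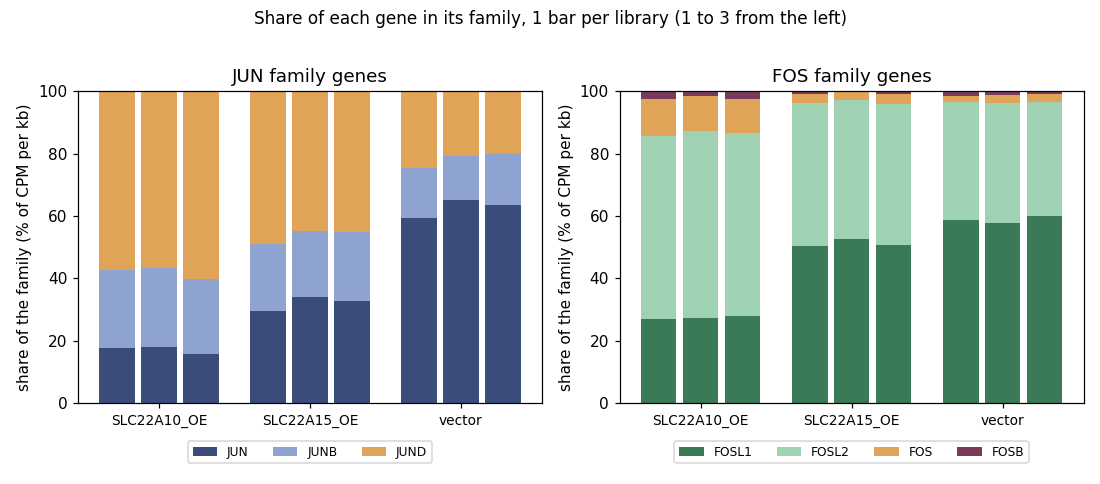
Share of each gene in the summed level (CPM per kb of longest coding transcript) of the JUN family (left) and the FOS family (right), 1 bar per library in the order SLC22A10_OE, SLC22A15_OE and vector. JUN makes up 62.8% of its family in vector on average and 17.2% in SLC22A10_OE, where JUND and FOSL2 are the largest blocks.

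Among the ERK feedback genes, the Sprouty gene SPRY1 was higher in SLC22A10_OE and lower in SLC22A15_OE. Sprouty proteins block the signal between growth factor receptors and RAS. SPRY1 stood at 58.1, 56.9 and 56.1 CPM in SLC22A10_OE and 18.6, 20.0 and 18.0 CPM in SLC22A15_OE, against 25.4, 25.3 and 24.1 CPM in vector. The groups did not overlap, with vector in the middle. For SPRY1, the log2 fold change was 1.16 (SE 0.06, adjusted p = 4.52e-09) in SLC22A10_OE and -0.39 (SE 0.06, adjusted p = 0.000496) in SLC22A15_OE, and SLC22A15_OE differed from SLC22A10_OE by -1.55 (SE 0.06, adjusted p = 1.49e-09). SPRY2 stood at 245, 247 and 254 CPM in SLC22A10_OE and 167, 163 and 170.4 CPM in SLC22A15_OE, against 173, 181 and 177 CPM in vector. SLC22A10_OE lay well above vector, and SLC22A15_OE lay just below it. For SPRY2, the log2 fold change was 0.49 (SE 0.04, adjusted p = 3.91e-07) in SLC22A10_OE and -0.09 (SE 0.04, adjusted p = 0.168) in SLC22A15_OE, with a line difference of -0.57 (SE 0.04, adjusted p = 1.53e-07). With the library number as a block, SPRY2 was called lower in SLC22A15_OE (-0.09, adjusted p = 0.0131; 0.0131 to 0.392 over all settings). SPRY4 was lower in both lines and stood at 327, 324 and 362 CPM in SLC22A10_OE and 446, 406 and 402 CPM in SLC22A15_OE, against 599.9, 526 and 539 CPM in vector. None of these groups overlapped. For SPRY4, the log2 fold change was -0.71 (SE 0.06, adjusted p = 4.56e-07) in SLC22A10_OE and -0.41 (SE 0.06, adjusted p = 0.000375) in SLC22A15_OE, and SLC22A15_OE was higher than SLC22A10_OE by 0.31 (SE 0.06, adjusted p = 0.000832).

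SPRED proteins bring neurofibromin, which switches RAS off, to the membrane. SPRED3 stood at 12.7, 11.8 and 12.2 CPM in SLC22A10_OE and 4.89, 3.69 and 3.62 CPM in SLC22A15_OE, against 4.4, 3.40 and 3.10 CPM in vector. SLC22A10_OE lay far above the other groups, which overlapped. For SPRED3, the log2 fold change was 1.52 (SE 0.12, adjusted p = 2.4e-07) in SLC22A10_OE and 0.13 (SE 0.12, adjusted p = 0.523) in SLC22A15_OE, with a line difference of -1.39 (SE 0.12, adjusted p = 8.44e-07). SPRED2 stood at 69.9, 62.2 and 62.5 CPM in SLC22A10_OE and 51.4, 50.3 and 48.1 CPM in SLC22A15_OE, against 64.0, 62.1 and 60.1 CPM in vector. SLC22A15_OE lay below the overlapping SLC22A10_OE and vector groups. For SPRED2, the log2 fold change was 0.06 (SE 0.06, adjusted p = 0.375) in SLC22A10_OE and -0.31 (SE 0.06, adjusted p = 0.00212) in SLC22A15_OE, with a line difference of -0.37 (SE 0.06, adjusted p = 0.000126). SPRED1 stood at 54.0, 50.4 and 50.5 CPM in SLC22A10_OE and 43.3, 49.9 and 49.5 CPM in SLC22A15_OE, against 53.8, 60.0 and 57.8 CPM in vector. SLC22A15_OE lay below vector, and SLC22A10_OE reached into the vector range. For SPRED1, the log2 fold change was -0.14 (SE 0.07, adjusted p = 0.0735) in SLC22A10_OE and -0.26 (SE 0.07, adjusted p = 0.0138) in SLC22A15_OE, with a line difference of -0.12 (SE 0.07, adjusted p = 0.141). The SPRED1 call in SLC22A15_OE was lost without SLC22A15_OE library 1 (-0.20), vector library 2 (-0.23) or vector library 3 (-0.26). After centring, SPRED1 was also called lower in SLC22A10_OE (-0.26), as it was without SLC22A15_OE library 1 (-0.14) or vector library 1 (-0.19).

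DUSP6, the cytoplasmic phosphatase of ERK whose transcript is a common readout of the pathway, was lower in SLC22A15_OE. It stood at 19.9, 19.7 and 19.6 CPM in SLC22A10_OE and 10.5, 9.65 and 10.0 CPM in SLC22A15_OE, against 24.9, 21.6 and 21.4 CPM in vector. The SLC22A15_OE libraries lay far below the others, and SLC22A10_OE lay just under vector. For DUSP6, the log2 fold change was -0.19 (SE 0.08, adjusted p = 0.0438) in SLC22A10_OE and -1.10 (SE 0.08, adjusted p = 4.81e-07) in SLC22A15_OE, with a line difference of -0.91 (SE 0.08, adjusted p = 5.54e-07). The small SLC22A10_OE difference lost its call without any 1 of the 3 SLC22A10_OE libraries or without SLC22A15_OE library 2 or 3 (-0.19 each), or without vector library 1 (-0.12). It was also lost without the 3 libraries low in mitochondrial ribosomal RNA (-0.12, adjusted p = 0.199) and with only these 2 groups in the fit (-0.19, adjusted p = 0.0548). DUSP7, another cytoplasmic ERK phosphatase, stood at 49.8, 45.4 and 48.5 CPM in SLC22A10_OE and 82.6, 72.7 and 73.3 CPM in SLC22A15_OE, against 109.8, 94.4 and 96.5 CPM in vector. All 3 groups were apart, with SLC22A10_OE the lowest. For DUSP7, the log2 fold change was -1.05 (SE 0.07, adjusted p = 4.03e-08) in SLC22A10_OE and -0.39 (SE 0.07, adjusted p = 0.00135) in SLC22A15_OE, and SLC22A15_OE was higher than SLC22A10_OE by 0.66 (SE 0.07, adjusted p = 4.17e-06). DUSP1, a nuclear phosphatase of p38, JNK and ERK, stood at 21.9, 23.4 and 24.1 CPM in SLC22A10_OE and 16.3, 16.2 and 13.3 CPM in SLC22A15_OE, against 21.9, 21.1 and 19.5 CPM in vector. SLC22A15_OE was the lowest group. For DUSP1, the log2 fold change was 0.14 (SE 0.09, adjusted p = 0.158) in SLC22A10_OE and -0.43 (SE 0.09, adjusted p = 0.00312) in SLC22A15_OE, with a line difference of -0.57 (SE 0.09, adjusted p = 8.14e-05). DUSP4, a nuclear phosphatase induced by ERK, stood at 4.29, 4.55 and 5.83 CPM in SLC22A10_OE and 1.40, 1.74 and 2.46 CPM in SLC22A15_OE, against 3.35, 2.14 and 3.02 CPM in vector. SLC22A10_OE was the highest group, and SLC22A15_OE overlapped with vector. For DUSP4, the log2 fold change was 0.62 (SE 0.16, adjusted p = 0.00399) in SLC22A10_OE and -0.42 (SE 0.16, adjusted p = 0.084) in SLC22A15_OE, with a line difference of -1.05 (SE 0.16, adjusted p = 9.39e-05). In SLC22A15_OE, DUSP4 was called lower with the library number as a block (-0.42, adjusted p = 0.00893; 0.00893 to 0.334 over all settings), without SLC22A15_OE library 3 (-0.57) and without vector library 2 (-0.56). DUSP5, a nuclear ERK phosphatase, stood at 2.20, 2.63 and 2.95 CPM in SLC22A10_OE and 4.41, 2.26 and 3.89 CPM in SLC22A15_OE, against 3.38, 4.22 and 3.95 CPM in vector. SLC22A10_OE lay below vector, and SLC22A15_OE spread across both. For DUSP5, the log2 fold change was -0.43 (SE 0.17, adjusted p = 0.0336) in SLC22A10_OE and -0.13 (SE 0.17, adjusted p = 0.645) in SLC22A15_OE, with a line difference of 0.30 (SE 0.17, adjusted p = 0.127). Its SLC22A10_OE call was lost without SLC22A10_OE library 1 (-0.35) or library 2 (-0.45), or without vector library 2 (-0.38) or library 3 (-0.42), and without SLC22A15_OE library 2 the SLC22A15_OE value was 0.09 against vector and a called 0.52 between the lines. After centring, the line difference of DUSP5 was called too (0.40).

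Without the 3 libraries low in mitochondrial ribosomal RNA, the values in SLC22A10_OE and SLC22A15_OE were 1.18 and -0.36 for SPRY1, 1.64 and 0.13 for SPRED3 and -0.99 and -0.38 for DUSP7, and DUSP6 was at -1.06 in SLC22A15_OE.

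Of the 11 feedback genes tested, 4 were higher and 4 lower in SLC22A10_OE, and 0 higher and 7 lower in SLC22A15_OE. The shares of all genes tested were 34.7% higher and 32.5% lower in SLC22A10_OE, 10.8% and 9.58% in SLC22A15_OE, and 30.8% and 32.1% between the lines. In SLC22A10_OE, 2 feedback genes were called lower without library 1 or library 2. Their median log2 fold changes were 0.06 and -0.39. Between the lines 2 were higher and 7 lower in SLC22A15_OE, with a median of -0.57. With limma, 0 of the 11 were higher in SLC22A15_OE at an unadjusted p under 0.05, and edgeR and DESeq2 each called 0.

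**Figure D4:**
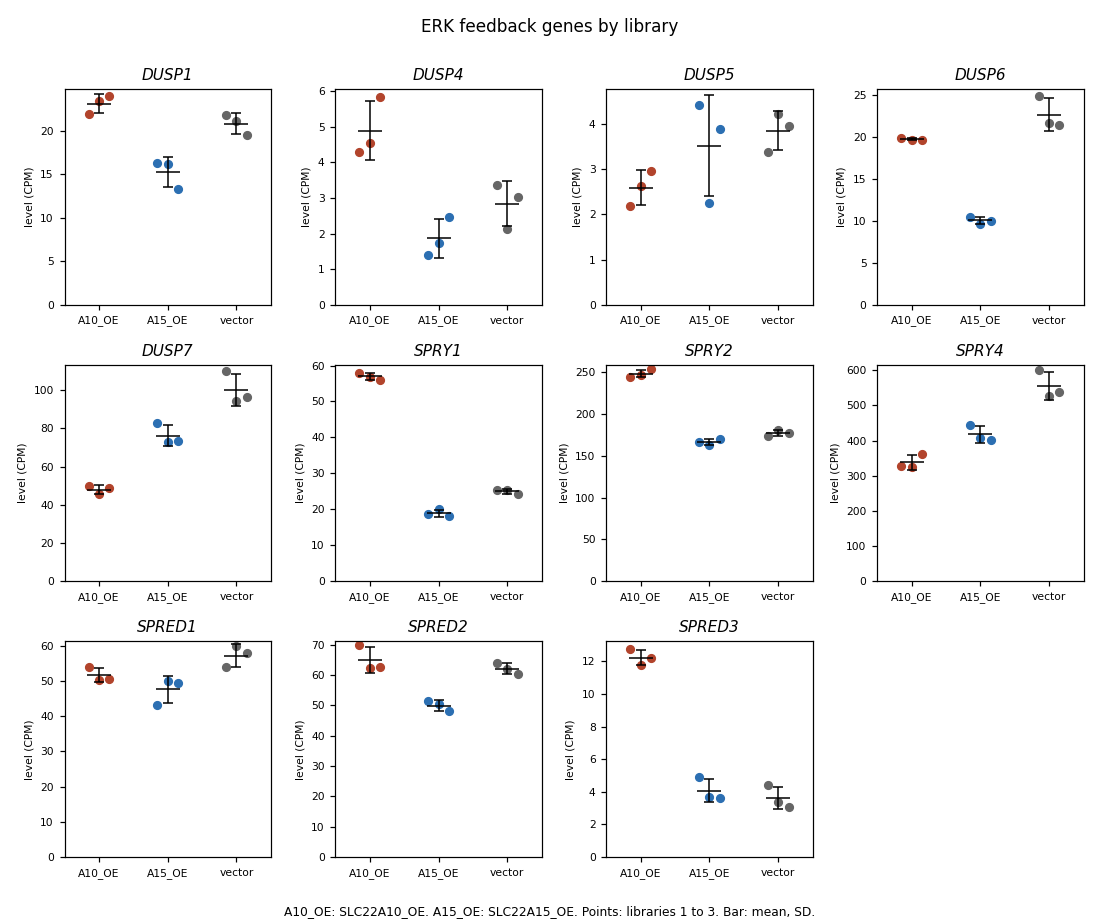
Level in CPM of the 11 tested ERK feedback genes in every library, by group (points), with mean and SD; each axis starts at 0. SPRY1 and SPRED3 stand highest in SLC22A10_OE, DUSP7 and SPRY4 stand highest in vector, and DUSP6 stands lowest in SLC22A15_OE at 9.65 to 10.5 CPM.

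Among the other immediate early genes, those with a change of at least 0.5 in size, against vector or between the lines, comprised 5 genes higher in SLC22A10_OE and 4 genes lower in 1 or both lines. ZFP36L1, 1 of these 5, reached that size only between the lines. EGR1, a zinc finger transcription factor whose CArG boxes are shown above, stood at 78.9, 80.9 and 84.8 CPM in SLC22A10_OE and 37.2, 36.5 and 35.5 CPM in SLC22A15_OE, against 33.9, 32.0 and 32.3 CPM in vector. SLC22A10_OE averaged 2.49 times the vector level, and SLC22A15_OE lay just over vector. For EGR1, the log2 fold change was 1.29 (SE 0.05, adjusted p = 6.43e-10) in SLC22A10_OE and 0.15 (SE 0.05, adjusted p = 0.0743) in SLC22A15_OE, with a line difference of -1.14 (SE 0.05, adjusted p = 4.96e-09). With the library number as a block, EGR1 was called higher in SLC22A15_OE (0.15, adjusted p = 0.0141; 0.00668 to 0.204 over all settings), as it was without vector library 1 (0.17). NR4A1, an orphan nuclear receptor, stood at 3.49, 3.38 and 3.09 CPM in SLC22A10_OE and 0.953, 0.858 and 0.760 CPM in SLC22A15_OE, against 1.32, 0.759 and 0.901 CPM in vector. Only SLC22A10_OE stood clear of 1 CPM in every library, and the other groups overlapped. For NR4A1, the log2 fold change was 1.12 (SE 0.12) in SLC22A10_OE and -0.09 (SE 0.12) in SLC22A15_OE, with a line difference of -1.22 (SE 0.12). NR4A1 passed the filter mainly through SLC22A10_OE, the group where it was high, so these values are a description only and no test is given. The counts still include it among the genes higher in SLC22A10_OE than in vector and lower in SLC22A15_OE than in SLC22A10_OE. As a ratio of means, NR4A1 was 3.34 times as high in SLC22A10_OE as in vector. ZFP36, which binds AU-rich elements and speeds the decay of mRNAs, stood at 7.78, 8.04 and 9.35 CPM in SLC22A10_OE and 4.95, 3.85 and 3.89 CPM in SLC22A15_OE, against 4.55, 3.60 and 3.82 CPM in vector. The SLC22A10_OE libraries lay above both other groups, which overlapped. For ZFP36, the log2 fold change was 0.91 (SE 0.12, adjusted p = 1.48e-05) in SLC22A10_OE and 0.07 (SE 0.12, adjusted p = 0.753) in SLC22A15_OE, with a line difference of -0.85 (SE 0.12, adjusted p = 3.61e-05). Its relative ZFP36L1 stood at 346, 328 and 378 CPM in SLC22A10_OE and 260.3, 238 and 237 CPM in SLC22A15_OE, against 289, 260.5 and 259.9 CPM in vector. SLC22A10_OE was again the highest group. For ZFP36L1, the log2 fold change was 0.37 (SE 0.06, adjusted p = 0.000144) in SLC22A10_OE and -0.14 (SE 0.06, adjusted p = 0.142) in SLC22A15_OE, with a line difference of -0.51 (SE 0.06, adjusted p = 1.23e-05). CSRNP1, a nuclear protein of cysteine and serine rich type, stood at 8.97, 8.41 and 10.5 CPM in SLC22A10_OE and 6.10, 5.62 and 6.29 CPM in SLC22A15_OE, against 6.55, 4.73 and 5.01 CPM in vector. SLC22A10_OE stood above both other groups. For CSRNP1, the log2 fold change was 0.68 (SE 0.12, adjusted p = 0.000195) in SLC22A10_OE and 0.13 (SE 0.12, adjusted p = 0.484) in SLC22A15_OE, with a line difference of -0.55 (SE 0.12, adjusted p = 0.0012). Without the 3 libraries low in mitochondrial ribosomal RNA, EGR1 was at 1.29 and 0.16 in SLC22A10_OE and SLC22A15_OE.

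KLF10, a zinc finger factor known as an early target of TGF-beta, stood at 20.2, 19.2 and 20.2 CPM in SLC22A10_OE and 31.6, 32.3 and 30.6 CPM in SLC22A15_OE, against 34.1, 40.5 and 36.8 CPM in vector. All 3 groups were apart, with SLC22A10_OE the lowest. For KLF10, the log2 fold change was -0.86 (SE 0.07, adjusted p = 2.3e-07) in SLC22A10_OE and -0.23 (SE 0.07, adjusted p = 0.0349) in SLC22A15_OE, with a line difference of 0.64 (SE 0.07, adjusted p = 5.33e-06). The smaller SLC22A15_OE call was lost without any 1 of the 3 SLC22A15_OE libraries (-0.23, -0.24 and -0.21) and without vector library 2 (-0.16) or library 3 (-0.23), and also with only these 2 groups in the fit or with a block over all 9 libraries (-0.23 each). SPHK1, the kinase that makes sphingosine 1-phosphate, stood at 5.50, 5.64 and 6.12 CPM in SLC22A10_OE and 9.75, 7.44 and 8.31 CPM in SLC22A15_OE, against 11.5, 10.8 and 11.1 CPM in vector. Its groups were in the same order. For SPHK1, the log2 fold change was -0.84 (SE 0.10, adjusted p = 6.57e-06) in SLC22A10_OE and -0.36 (SE 0.10, adjusted p = 0.0201) in SLC22A15_OE, with a line difference of 0.49 (SE 0.10, adjusted p = 0.000813). The SPHK1 call in SLC22A15_OE was lost without SLC22A15_OE library 2 (-0.28) or 3 (-0.35), or without vector library 3 (-0.36). TRIB1, a pseudokinase that brings the COP1 ubiquitin ligase to its substrates, stood at 3.23, 3.12 and 3.13 CPM in SLC22A10_OE and 1.75, 1.72 and 1.70 CPM in SLC22A15_OE, against 2.92, 3.57 and 3.69 CPM in vector. SLC22A15_OE lay below the overlapping SLC22A10_OE and vector groups. For TRIB1, the log2 fold change was -0.07 (SE 0.10, adjusted p = 0.535) in SLC22A10_OE and -0.69 (SE 0.10, adjusted p = 0.0003) in SLC22A15_OE, with a line difference of -0.61 (SE 0.10, adjusted p = 0.00018). Without the 3 libraries low in mitochondrial ribosomal RNA, TRIB1 was at -0.15 in SLC22A10_OE and -0.77 in SLC22A15_OE. PHLDA2, a small pleckstrin homology protein from an imprinted gene, stood at 1.81, 1.83 and 1.51 CPM in SLC22A10_OE and 0.889, 0.598 and 1.41 CPM in SLC22A15_OE, against 2.89, 2.53 and 1.99 CPM in vector. SLC22A15_OE was the lowest group and vector the highest. For PHLDA2, the log2 fold change was -0.35 (SE 0.15, adjusted p = 0.0595) in SLC22A10_OE and -0.83 (SE 0.15, adjusted p = 0.00155) in SLC22A15_OE, with a line difference of -0.49 (SE 0.15, adjusted p = 0.0135). The line call of PHLDA2 was lost without SLC22A15_OE library 2 (-0.35). PHLDA2 was called lower in SLC22A10_OE without vector library 3 (-0.45), without SLC22A15_OE library 2 or 3 (-0.35 each) and after centring (-0.47). It was also called lower there with only SLC22A10_OE and vector in the fit (-0.35).

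**Figure D5:**
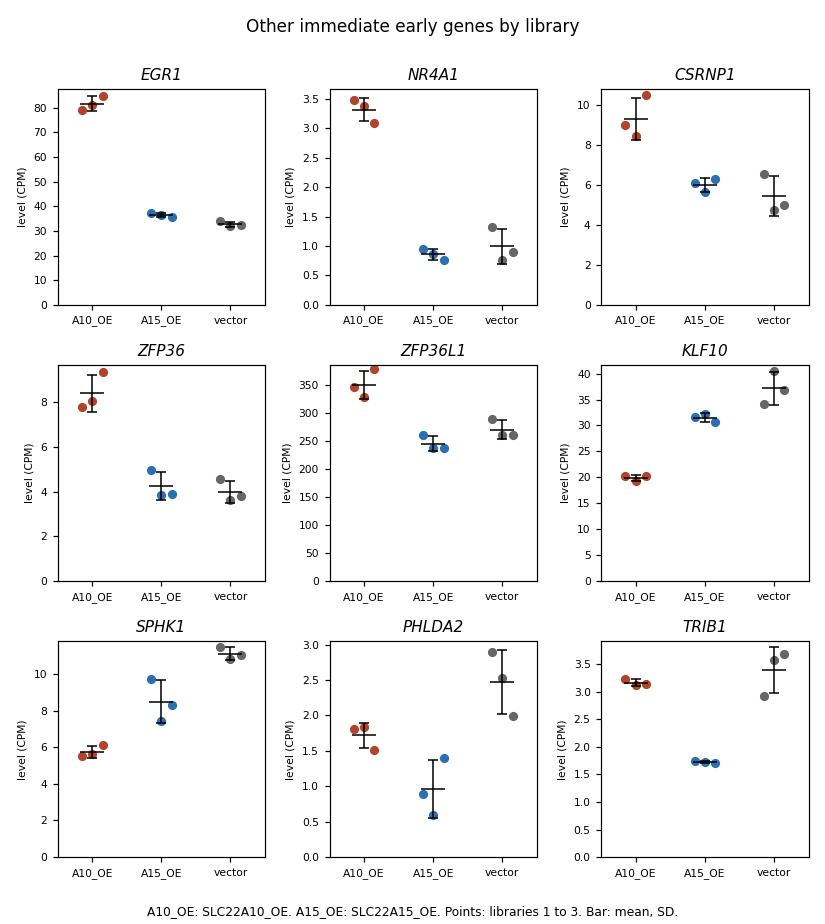
Level in CPM of the 9 other immediate early genes with a change of at least 0.5 on the log2 scale in a called comparison, in every library by group (points), with mean and SD; each axis starts at 0. EGR1, NR4A1, CSRNP1, ZFP36 and ZFP36L1 stand highest in SLC22A10_OE, and PHLDA2 and TRIB1 stand lowest in SLC22A15_OE.

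The remaining 8 tested genes changed less. PHLDA1, the most abundant of them at 649 to 866 CPM, was higher in SLC22A10_OE (0.28 (SE 0.04, adjusted p = 1.79e-05)). KLF6, a zinc finger factor, was lower in SLC22A10_OE (-0.21 (SE 0.04, adjusted p = 0.000643)) and in SLC22A15_OE (-0.42 (SE 0.04, adjusted p = 9.25e-06)). IER5, a regulator of heat shock factor, was lower in SLC22A10_OE (-0.47 (SE 0.08, adjusted p = 0.000132)), and so was IER2 (-0.27 (SE 0.10, adjusted p = 0.026)), whose call was lost without SLC22A10_OE library 1 (-0.20) or 2 (-0.25) or vector library 1 (-0.20). IER3, a stress-induced survival gene, was lower in SLC22A15_OE (-0.27 (SE 0.08, adjusted p = 0.0323)), and this call was lost without SLC22A15_OE library 2 (-0.28) or 3 (-0.22), without any 1 vector library (-0.21 to -0.30) or with only these 2 groups in the fit (-0.27). With the library number as a block, IER2 (-0.23), IER5 (-0.19), PHLDA1 (-0.11) and ZFP36L1 (-0.14) were also called lower in SLC22A15_OE. The small MAF genes MAFF and MAFK and the factor SRF, at 9.94 to 15.6, 26.6 to 38 and 61.5 to 80.2 CPM, had no call against vector, and SRF was higher in SLC22A15_OE than in SLC22A10_OE (0.21 (SE 0.08, adjusted p = 0.0288)). The SRF line call was lost without SLC22A10_OE library 1 (0.19) or 2 (0.19) or SLC22A15_OE library 1 (0.16) or 2 (0.22). Without vector library 1, MAFF (0.33) and MAFK (0.28) were called higher in SLC22A10_OE. MAFK was called lower in SLC22A15_OE than in SLC22A10_OE without SLC22A10_OE library 1 (-0.33), SLC22A15_OE library 1 (-0.33), or vector library 1 or 2 (-0.26 each). The same MAFK call was made with DESeq2 (-0.27), and with only these 2 groups in the fit or a block over all 9 libraries (-0.26 each). SRF was called lower in SLC22A10_OE without its library 3 (-0.22) or vector library 2 (-0.24), and after centring (-0.29). In SLC22A15_OE, IER2 was called lower without its library 1 (-0.33) and PHLDA1 without vector library 1 (-0.12). PHLDA1 was also called lower in SLC22A15_OE after centring (-0.14), with edgeR (-0.11) and with DESeq2 (-0.12).

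Of all genes tested, 34.7% were higher and 32.5% lower in SLC22A10_OE, 10.8% and 9.58% in SLC22A15_OE, and 30.8% and 32.1% between the lines. Of the 17 tested genes among the other immediate early genes, 6 were higher and 5 lower in SLC22A10_OE, and 0 higher and 6 lower in SLC22A15_OE. In SLC22A15_OE against SLC22A10_OE, 4 of the 17 were higher and 10 lower. With limma, 1 was higher in SLC22A15_OE at an unadjusted p under 0.05, and edgeR and DESeq2 each called 0. Without SLC22A15_OE library 2 or 3 or vector library 3, 3 were called lower in SLC22A15_OE. The block fit called 1 higher and 10 lower in SLC22A15_OE, where 20.9% of all genes tested in it were higher and 20.7% lower.

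The wider pathway was read from further gene lists, which were chosen with earlier results of these data known. The list of ERK output genes overlaps with that of further immediate early genes and with that of AP-1 target genes. Some genes are thus counted in more than 1 list, and the counts of these lists are not independent. The counts of each list are to be set beside the shares of all genes tested. These shares were 34.7% higher and 32.5% lower in SLC22A10_OE, 10.8% and 9.58% in SLC22A15_OE, and 30.8% and 32.1% between the lines. Of 17 tested AP-1 target genes, 3 were higher and 10 lower in SLC22A10_OE, with a median log2 fold change of -0.35. In SLC22A15_OE, 0 were higher and 11 lower, with a median of -0.29. With limma, 1 was higher there at an unadjusted p under 0.05, and edgeR and DESeq2 each called 0. CD44, the receptor of hyaluronan, averaged 662 ± 34.7 CPM in SLC22A10_OE, against 1433 ± 60.9 in vector (log2 fold change -1.11, adjusted p = 1.04e-09), and it was lower in SLC22A15_OE too, at 779.5 ± 27.8 CPM (log2 fold change -0.88, adjusted p = 6.82e-08). ITGB4, an integrin subunit, averaged 15.1 ± 1.41 CPM in SLC22A10_OE, against 3.41 ± 0.400 in vector (log2 fold change 1.87, adjusted p = 6.64e-09). PLAU, the plasminogen activator urokinase, averaged 51.2 ± 0.240 CPM in SLC22A15_OE, against 111 ± 3.89 in vector (log2 fold change -1.10, adjusted p = 1.24e-08). Its receptor PLAUR averaged 9.85 ± 0.778 CPM in SLC22A15_OE, against 30.0 ± 2.98 in vector (log2 fold change -1.51, adjusted p = 1.46e-07). ITGB4 had the highest and CD44 the lowest log2 fold change of this list in SLC22A10_OE. Between the lines 5 targets were higher and 7 lower in SLC22A15_OE. The smallest adjusted p were those of ITGB4, which averaged 3.41 ± 0.236 CPM in SLC22A15_OE, against 15.1 ± 1.41 in SLC22A10_OE (log2 fold change -1.87, adjusted p = 1.63e-08), VEGFA, a growth factor of vessels, at 57 ± 1.35 CPM in SLC22A15_OE, against 99.8 ± 1.86 in SLC22A10_OE (log2 fold change -0.80, adjusted p = 7.84e-08), and S100A10, an annexin partner, at 179 ± 13.8 CPM in SLC22A15_OE, against 115 ± 3.81 in SLC22A10_OE (log2 fold change 0.64, adjusted p = 2.59e-06). In vector VEGFA averaged 61.8 ± 3.66 CPM and S100A10 216 ± 15.1 CPM. Against vector, VEGFA was higher in SLC22A10_OE (0.68) and had no call in SLC22A15_OE (-0.11). S100A10 was lower than vector in SLC22A10_OE (-0.91) and in SLC22A15_OE (-0.27).

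Of 15 tested ERK output genes outside the 38, 3 were higher and 6 lower in SLC22A10_OE, and 2 higher and 10 lower in SLC22A15_OE. UPP1, uridine phosphorylase, averaged 12.2 ± 0.511 CPM in SLC22A10_OE, against 39.6 ± 1.19 in vector (log2 fold change -1.62, adjusted p = 1.08e-09), and in SLC22A15_OE it averaged 19.9 ± 1.59 CPM (log2 fold change -0.96, adjusted p = 1.03e-06). AREG, a ligand of the EGF receptor, averaged 92.6 ± 5.35 CPM in SLC22A10_OE, against 28.6 ± 3.49 in vector (log2 fold change 1.66, adjusted p = 3e-09), and in SLC22A15_OE it averaged 47.9 ± 3.04 CPM (log2 fold change 0.73, adjusted p = 3.8e-05). PVR, a nectin-like receptor, averaged 67.0 ± 0.937 CPM in SLC22A10_OE, against 122 ± 1.33 in vector (log2 fold change -0.86, adjusted p = 3.42e-09). ETV5, an ETS factor of the PEA3 type, averaged 151 ± 1.36 CPM in SLC22A15_OE, against 186 ± 1.18 in vector (log2 fold change -0.30, adjusted p = 0.000105). Its relative ETV1 averaged 30.3 ± 1.92 CPM in SLC22A15_OE, against 68.8 ± 4.16 in SLC22A10_OE (log2 fold change -1.16, adjusted p = 4.72e-08). In vector ETV1 averaged 35.35 ± 2.77 CPM. Against vector, ETV1 was higher in SLC22A10_OE (0.94) and had no call in SLC22A15_OE (-0.22). Medians of the list were -0.12 and -0.29, with 5 genes higher and 8 lower in SLC22A15_OE than in SLC22A10_OE.

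All 35 genes listed for the RAS to ERK cascade were tested. In SLC22A10_OE, 14 were higher and 13 lower, with a median of 0.00, and in SLC22A15_OE 4 were higher and 6 lower, with a median of -0.01. Among all genes tested, 34.7% were higher and 32.5% lower in SLC22A10_OE, and 10.8% and 9.58% in SLC22A15_OE. PEA15, which holds ERK in the cytoplasm, averaged 49.3 ± 4.03 CPM in SLC22A10_OE, against 109.6 ± 4.10 in vector (log2 fold change -1.14, adjusted p = 5.13e-09). MAPK3, the gene of ERK1, averaged 77.1 ± 5.74 CPM in SLC22A10_OE, against 29.2 ± 2.98 in vector (log2 fold change 1.37, adjusted p = 7.33e-09). RRAS2, a RAS-related GTPase, averaged 27.2 ± 1.82 CPM in SLC22A10_OE, against 54.6 ± 2.48 in vector (log2 fold change -0.98, adjusted p = 2.63e-08). The kinase gene BRAF averaged 89.0 ± 2.34 CPM in SLC22A15_OE, against 62.6 ± 2.59 in vector (log2 fold change 0.50, adjusted p = 1.27e-05). ELK3, a partner of SRF, averaged 106 ± 3.70 CPM in SLC22A15_OE, against 141 ± 6.73 in vector (log2 fold change -0.41, adjusted p = 6.27e-05), and the scaffold KSR1 averaged 15 ± 2.01 CPM in SLC22A15_OE, against 23.8 ± 1.82 in vector (log2 fold change -0.64, adjusted p = 0.000425). Between the lines 9 were higher and 13 lower in SLC22A15_OE, where the phosphatase gene PTPN11 averaged 379 ± 16 CPM in SLC22A15_OE, against 244 ± 6.87 in SLC22A10_OE (log2 fold change 0.63, adjusted p = 1.91e-07). In vector PTPN11 averaged 406 ± 16.2 CPM. Against vector, PTPN11 was lower in SLC22A10_OE (-0.73) and had no call in SLC22A15_OE (-0.10).

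Of 20 tested genes of the JNK and p38 cascade, 4 were higher and 5 lower in SLC22A10_OE, and 1 was higher and 0 lower in SLC22A15_OE. With limma, 4 were lower in SLC22A15_OE at an unadjusted p under 0.05, edgeR called 1 and DESeq2 called 3. The p38 kinase gene MAPK11 averaged 12.8 ± 1.09 CPM in SLC22A10_OE, against 4.64 ± 0.968 in vector (log2 fold change 1.30, adjusted p = 8.31e-07), its activator MAP2K6 averaged 2.36 ± 0.192 CPM in SLC22A10_OE, against 0.449 ± 0.0967 in vector, and MAP2K3 averaged 57.1 ± 3.41 CPM in SLC22A10_OE, against 86.3 ± 10.2 in vector (log2 fold change -0.58, adjusted p = 5.28e-05). MAP2K6 reached 1 CPM in SLC22A10_OE alone, so it passed the filter through the group where it was high and no test is given. The count of 4 cascade genes higher in SLC22A10_OE still includes MAP2K6. MAP3K5, a stress kinase, averaged 6.21 ± 0.625 CPM in SLC22A15_OE, against 4.09 ± 0.0939 in vector (log2 fold change 0.50, adjusted p = 0.00232). Of 9 further MAP kinase phosphatases, 3 were higher and 2 lower in SLC22A10_OE, and 1 was higher and 0 lower in SLC22A15_OE. With limma, 1 was lower in SLC22A15_OE at an unadjusted p under 0.05, and edgeR and DESeq2 each called 0. DUSP16, a JNK phosphatase, averaged 67.3 ± 0.430 CPM in SLC22A10_OE, against 41.1 ± 1.55 in vector (log2 fold change 0.70, adjusted p = 2.34e-07), and in SLC22A15_OE it averaged 51.7 ± 2.96 CPM (log2 fold change 0.32, adjusted p = 0.0011). DUSP9 averaged 4.35 ± 0.966 CPM in SLC22A10_OE, against 1.02 ± 0.387 in vector (log2 fold change 1.41, adjusted p = 1.02e-05), and DUSP14 averaged 11.1 ± 1.41 CPM in SLC22A10_OE, against 16 ± 0.938 in vector (log2 fold change -0.49, adjusted p = 0.000383).

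Of 20 further immediate early genes, 6 were higher and 10 lower in SLC22A10_OE, and 3 higher and 8 lower in SLC22A15_OE. BTG2, an antiproliferative gene, averaged 57.6 ± 1.97 CPM in SLC22A10_OE, against 22.7 ± 0.416 in vector (log2 fold change 1.30, adjusted p = 5.4e-09). GADD45A, a DNA damage and stress gene, averaged 7.33 ± 1.23 CPM in SLC22A10_OE, against 20.4 ± 1.99 in vector (log2 fold change -1.37, adjusted p = 3.34e-07), and in SLC22A15_OE it averaged 10.8 ± 0.954 CPM (log2 fold change -0.86, adjusted p = 0.00013). KLF4 averaged 10.6 ± 1.22 CPM in SLC22A10_OE, against 20.6 ± 0.990 in vector (log2 fold change -0.90, adjusted p = 1.48e-06), and in SLC22A15_OE it averaged 12.4 ± 0.666 CPM (log2 fold change -0.68, adjusted p = 0.000107). TIPARP averaged 115 ± 3.50 CPM in SLC22A15_OE, against 156 ± 13.5 in vector (log2 fold change -0.43, adjusted p = 0.000202). Of 13 other AP-1 and MAF factors, 5 were higher and 4 lower in SLC22A10_OE, and 1 higher and 4 lower in SLC22A15_OE. NFE2L2, the oxidative stress factor NRF2, averaged 71.2 ± 0.982 CPM in SLC22A10_OE, against 104 ± 2.00 in vector (log2 fold change -0.55, adjusted p = 4.42e-07), NFE2L1 averaged 174 ± 7.69 CPM in SLC22A10_OE, against 131 ± 5.72 in vector (log2 fold change 0.40, adjusted p = 1.45e-05), and BATF2 averaged 1.53 ± 0.369 CPM in SLC22A10_OE, against 0.305 ± 0.0560 in vector. BACH2 averaged 0.850 ± 0.0849 CPM in SLC22A15_OE, against 1.74 ± 0.374 in vector (log2 fold change -0.56, adjusted p = 0.0049), and BATF3 averaged 0.927 ± 0.0884 CPM in SLC22A15_OE, against 1.57 ± 0.247 in vector. BATF2 reached 1 CPM in SLC22A10_OE alone and BATF3 in vector alone, each the group where it was high, so no test is given for them. The counts of this list still include BATF2 among the 5 higher genes in SLC22A10_OE and BATF3 among the 4 lower genes in each line.

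The tested genes lie on 17 chromosomes, whose median log2 fold changes over all their genes tested ran from -0.15 to 0.16 in SLC22A10_OE, from -0.05 to 0.18 in SLC22A15_OE and from -0.11 to 0.10 between the lines. Chromosome 19, which holds JUNB, JUND, FOSB, IER2, SPRED3 and ZFP36, had the highest median in SLC22A10_OE. Chromosome 8, which holds DUSP4, KLF10 and TRIB1, had the highest in SLC22A15_OE. The authors' deposited tables gave, at an FDR under 0.05, 13 of the 36 genes higher and 12 lower in SLC22A10_OE and 1 higher and 18 lower in SLC22A15_OE, with the same call as limma for all 36 in each. EGR3, which was not among the 36, had a log2 fold change of 1.36 (authors' FDR 0.00883) in SLC22A10_OE and 0.16 (authors' FDR 0.860) in SLC22A15_OE. The shares of all genes that the authors called are not given here.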

How the data were processed

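The authors deposited CPM values per gene for 9 libraries and, per the file headers, a table for each comparison with vector with log2 fold change, log2 CPM, p-value and FDR. These deposited tables also hold an F score and a −log10 of the FDR, neither used here. edgeR is named, with the builds hg38 and mm9, in the submitters' processing notes; aligner, counter and annotation: not given in the sources used here. Column numbers could not be matched to the titles, so libraries are named by group and number, and values are given in the order of libraries 1, 2 and 3. Within a group, libraries differed beyond sampling noise (chi-square per degree of freedom 2.54 to 22.3).

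The main test was limma 3.58.1 (R 4.3.3) with a mean trend on log2(CPM + 1), a pseudocount of 1 CPM, in 1 fit of the 9 libraries with 6 residual degrees of freedom. Genes at 1 CPM in at least 3 libraries were tested, p-values were adjusted by Benjamini-Hochberg, and the threshold was 0.05. SE is that of limma. Whole reads recovered from the CPM (100% within 0.1 read) served edgeR 4.0.16 and DESeq2 1.42.0 as alternatives. Other alternatives were a pseudocount of 0.25 CPM, no filter, median centring, 2-group fits, a replicate block, a term for or removal of the 3 libraries low in mitochondrial ribosomal RNA, and leaving out each library. At 1 CPM the counting SD was 15.2% to 19.0%. The code of the limma fit was also run on simulated reads with few changed genes, the same fixed spread for all genes and no library effects. These data differ from that simulation, so it says nothing about the calls given here.

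Deviations of same-numbered libraries correlated over 0.1 in every pair only for SLC22A15_OE and vector (0.566, 0.315 and 0.194; SLC22A10_OE and vector -0.411, 0.143 and -0.265). SLC22A15_OE library 3 also correlated with vector library 2 (0.349), and SLC22A10_OE library 3 with libraries 1 of SLC22A15_OE and vector (0.485 and 0.517), which like it are low in mitochondrial ribosomal RNA. The pairing comes from the data and not the labels, and a block fit of those 6 libraries was added after the data were seen. Transcript lengths came from GENCODE release 29 and gene positions and promoter windows from RefSeq (GRCh38.p14).

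The members and lists were chosen with earlier results of these data known. Values per library are given for each AP-1 subunit and feedback gene tested and for each other member with a called log2 fold change of at least 0.5 in size; other members are given by ranges and calls. Of each further list, up to 3 called genes per comparison with the smallest adjusted p are named. Genes withheld from this report are counted in their lists but not reported here by name.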

Additional observations from a re-analysis of the deposited data

Results flagged for a closer look

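SPRY1, a Sprouty inhibitor of receptor signalling to RAS, was called in opposite directions in the lines, and the direct comparison passed the test. Its log2 fold change against vector was 1.16 in SLC22A10_OE and -0.39 in SLC22A15_OE, and SLC22A15_OE differed from SLC22A10_OE by -1.55 (SE 0.06, limma adjusted p = 1.49e-09). The 3 SLC22A10_OE libraries were all above, and the 3 SLC22A15_OE libraries all below, the 3 vector libraries. Over all settings tried the line difference ran from -1.60 to -1.45.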

How the results depend on the processing

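Of the members called, 21 of 25 in SLC22A10_OE against vector, 13 of 19 in SLC22A15_OE against vector and 27 of 31 between the lines were called in every setting tried. The same fraction over all genes called is not given here, so these counts do not compare the members with other genes. NR4A1, called in SLC22A10_OE and between the lines, did not pass the filter without the 3 libraries low in mitochondrial ribosomal RNA and was called in all other settings. It passed the filter mainly through SLC22A10_OE, so its calls are a description only. In SLC22A15_OE against vector, the term for the 3 libraries low in mitochondrial ribosomal RNA, their removal and the block fit of these 2 groups each called 3 members higher in place of 1 (19.7%, 16.5% and 20.9% of all genes tested were higher in these fits), 2 AP-1 subunits higher in place of 1 and 1 other immediate early gene higher in place of 0. The term, the removal and that block fit called 24, 22 and 24 members lower in place of 18, where 18.8%, 15.1% and 20.7% of all genes tested were lower in place of 9.58%. The term and that block fit called 10 other immediate early genes lower in place of 6. The term or the removal also made calls of SPRED1, PHLDA2, MAFF, MAFK and SRF in SLC22A10_OE and of DUSP5, SPRED1 and MAFK between the lines. The replicate block over all 9 libraries called 13 members higher and 12 lower in SLC22A10_OE against vector, 1 and 17 in SLC22A15_OE against vector, and 9 and 23 between the lines. Its 3 groups do not all pair by number, and the cause of these differences was not tested.

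Leaving out 1 library at a time gave, in SLC22A10_OE against vector, 13 to 15 members higher and 9 to 13 lower, 3 AP-1 subunits in each direction throughout, 4 feedback genes higher and 2 to 5 lower, and 6 to 8 other immediate early genes higher and 4 to 6 lower. In SLC22A15_OE against vector it gave 1 to 3 members higher and 13 to 18 lower, 1 to 2 AP-1 subunits higher and 3 to 5 lower, 0 feedback genes higher and 6 to 8 lower, and 0 to 1 other immediate early genes higher and 3 to 6 lower. Between the lines it gave 8 to 9 members higher and 20 to 23 lower. Where a group was left with 2 libraries, the spread was shared over the fit. The shares of all genes called in these fits, and in the block fit over all 9 libraries, are not given here. A change in these counts thus cannot be told apart from a change in calls over all genes.

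Only uncalled values changed sign. After centring, ATF3 was at -0.064, IER3 at -0.057 and SPRED2 at -0.059 in SLC22A10_OE, and MAFF at -0.0196 in SLC22A15_OE. Without the 3 libraries low in mitochondrial ribosomal RNA, ATF3 was at -0.0057 in SLC22A10_OE. MAFF was at -0.0187 in SLC22A15_OE with edgeR and -0.0201 with DESeq2. Leaving out 1 library put ATF3 between -0.0221 and 0.159 in SLC22A10_OE. In SLC22A15_OE it put DUSP5 between -0.276 and 0.089, MAFF between -0.112 and 0.189, MAFK between -0.211 and 0.0187, NR4A1 between -0.180 and 0.0204, SRF between -0.0214 and 0.124, and ZFP36 between -0.0306 and 0.145. Between the lines it put IER2 between -0.057 and 0.135. Depth limits genes near 1 CPM most (ATF3, FOSB, NR4A1 and PHLDA2).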
